A study of Mus musculus with 4 samples.

Results

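The response of wild-type (WT) helper T (Th) cells to a second encounter with antigen receptor stimulation was read on a pair of microarrays, and it is described here across all genes that the arrays could name. Naive CD4 T cells (CD44low CD25negative) from the spleen of C57BL/6J mice, which the labels give as female and the study's methods as 8 to 12 weeks old, were activated for 2 days with plate-bound anti-TCR-β mAb at 3 μg ml−1 plus anti-CD28 mAb at 1 μg ml−1 and grown for 3 more days with IL-2, at 2.5 ng ml−1 by the labels. One portion was harvested on day 5 (unstimulated) and the other after 4 h on immobilized anti-TCR-β mAb with no IL-2 added (re-stimulated). The labels name the WT genotype only as Bach2 WT, and the controls of the study carried CD4-Cre. The remaining arrays of the study held Bach2flox/flox × CD4-Cre TG cells, in which Cre under the Cd4 promoter removes the floxed gene in T cells, cultured and re-stimulated in the same way and called here cells labelled Bach2-deficient. The number of mice behind each culture is not given in the sources used here.

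A gene was taken as a member of the response data when the software marked its probe as well above background on either or both of the 2 WT arrays, whether or not its signal changed. Of 18749 genes named on the array, 12388 met this rule, 11112 on both arrays, 686 on the re-stimulated array only and 590 on the unstimulated array only. Each condition had 1 array, so no difference below has a replicate check and no test was made. Genes are called higher or lower where they differed at least 2-fold, a rule of size, and "rose" and "fell" are used in that sense. Signals are given on a scale on which the 75th percentile of each array is 100, and differences are log2 values of the re-stimulated minus the unstimulated array. Where a probe was not well above background on one array, that side was set to the array's lowest signal well above background, 3.47 before and 4.65 after re-stimulation, or to its own signal where that was higher, and the difference is a bound written as "at least". Because the re-stimulated cells were also without exogenous IL-2, receptor stimulation and the absence of added IL-2 cannot be told apart.

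Ligation of the T cell receptor sets off calcium, MAP kinase and protein kinase C signals that act on a small group of transcription factors, NFAT, AP-1 and NF-kB, which are already present in the cell or are made within the first hour. They switch on early response genes, then cytokines, chemokines, surface ligands and receptors, and at the same time a set of phosphatases and inhibitors that restrain the signal. A Th cell that has been primed once carries out this programme quickly, which is why cytokine production is usually measured a few hours after re-stimulation.

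The 2 WT arrays were alike in depth. Of 41173 probes, 54% were well above background before and 53.7% after re-stimulation, no spot was saturated, and the 75th percentile of the unscaled intensity was 436 and 313. Without replicates, the only measures of error were the spread between spots of a probe, with a median SD of 0.054 and 0.055 on the log2 scale, and the spread between different probes of a gene, with a median SD of 0.156 for the log2 difference over 3976 genes. Neither holds any difference between mice, cultures, labelling or hybridizations. All 12 T cell markers examined, Cd3e, Cd4 and Thy1 among them, were well above background on both arrays, 0 passed 2-fold in either direction, and their summed scaled signal was 75689 and 75026. The Cd8 probe on the array was not well above background. Markers of other cells were sparse, and their signals were summed over those well above background: 4 and 2 of 9 for B cells before and after re-stimulation (summed scaled signals of 136 and 43.2), 4 and 3 of 8 for myeloid cells (97.7 and 81.4), 2 of 6 for dendritic cells on both (14.9 and 40.8), 2 of 5 for NK cells on both (83.3 and 58.6) and 1 and 0 of 8 for mast cells and basophils (7.53 and 0). Of B cell genes, Cd79b had scaled signals of 120.4 and 31.2. The defining markers Ms4a1, Cd79a, Lyz2, Itgam, Itgax, Ncr1, Mcpt8 and Cpa3 were not well above background on either WT array. Of erythroid markers 1 of 4 was above it on both, Hba-a1, a haemoglobin chain, with 1991 and 1471. How far other cells contributed to any result below was not tested. In cells measured in bulk, fewer cells of a kind and less RNA per cell cannot be told apart.

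Re-stimulation was followed by wide changes in both directions. Of the 12388 genes, 1630 (13.2%) were at least 2-fold higher and 1673 (13.5%) at least 2-fold lower, and 50.8% stayed within 1.5-fold and 73.3% within 2-fold. The rises reached much further than the falls: 270 genes were at least 8-fold higher against 27 lower, and 144 at least 16-fold higher against 3 lower. Among the genes past 2-fold, 423 of the higher and 165 of the lower ones were bounds. The median difference over all used genes was −0.0052, against which the medians of the gene lists below can be read. Counts of list members that were higher or lower can be read against the 13.2% and 13.5% above. How evenly the genes split depends on the scaling. Higher genes made up 49.3% of those past 2-fold here, 29.1% when the arrays were scaled to their medians, which moved the median of all genes to −0.30, and 71.5% when they were scaled to the probe for Cd3e, which moved it to 0.27. Differences of less than about 0.3 log2 units therefore have no direction apart from the scaling. Where a gene past 2-fold had several used probes, all of them went the same way for 975 of 1039 genes (93.8%).

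**Figure D1:**
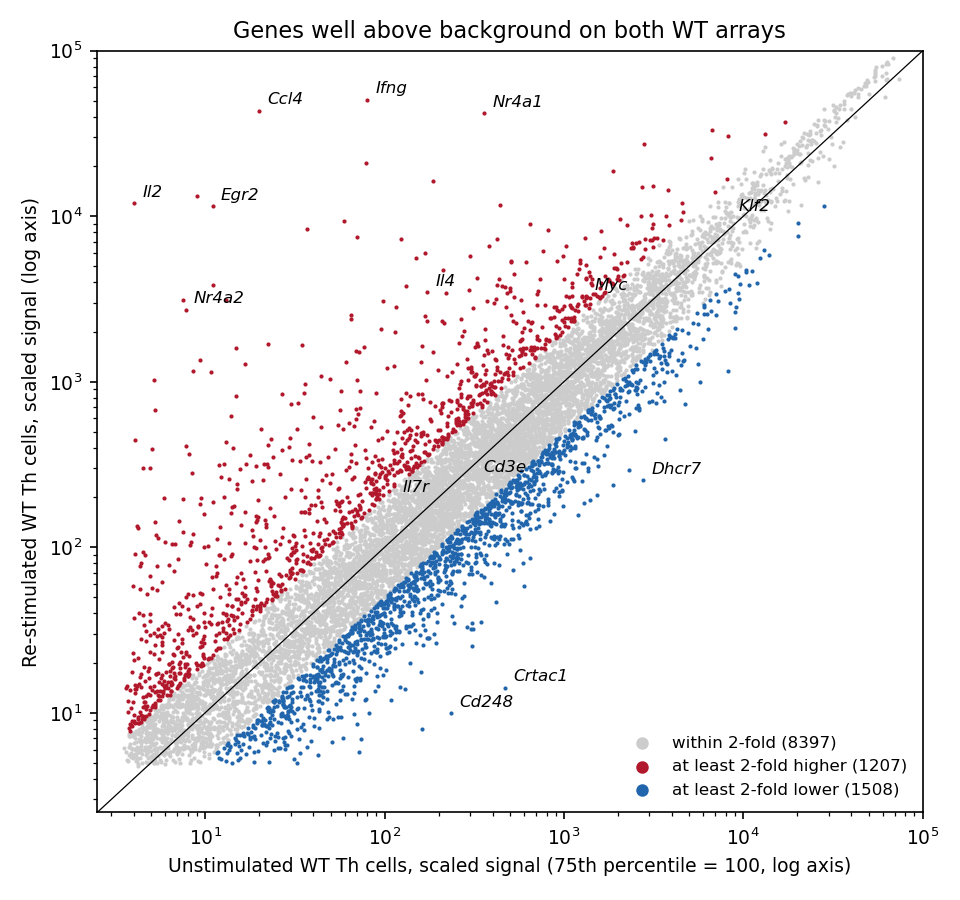
Scaled signal of each gene in unstimulated (x axis) and re-stimulated (y axis) WT Th cells, both on log axes with the 75th percentile of each array set to 100, for the 11112 genes well above background on both arrays. Red points are at least 2-fold higher and blue points at least 2-fold lower. Rises such as Il2, Ccl4 and Egr2 lie far above the line of equal signal, while the falls stay closer to it.

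The genes with the largest measured rises were mostly secreted messengers and early transcription factors. Il2, the T cell growth factor, had a scaled signal of 4.02 before re-stimulation, barely clear of the background, and 12006 after it, a difference of 11.54. Ccl4, a chemokine that draws in T cells and monocytes, went from 19.9 to 43535 (11.09), and Xcl1, the chemokine read by cross-presenting dendritic cells, from 9 to 13274 (10.53). Egr2, a zinc finger factor of the early response, went from 11 to 11558 (10.04) and Ifng, the signature cytokine of Th1 cells, from 80.2 to 50745 (9.30). The second probes of Il2 and Ifng rose as well, that of Il2 by 9.02. The next in order was Mpzl2, an adhesion molecule, with 8.71 by the probe used and 4.65 by its other probe. After it came the orphan nuclear receptor Nr4a2 with 8.45 and Rgs16, which shortens signals of G protein-coupled receptors, with 8.44. Csf2, which encodes GM-CSF, had 8.05. Penk, the precursor of enkephalins, followed with 7.89, Crtam, an adhesion receptor of activated T cells, with 7.82, and Cxcl10, an interferon-induced chemokine, with 7.62. Srxn1, which repairs over-oxidized peroxiredoxins, rose by 7.30, the receptor Cd160 by 7.18 and Tnnc2, known as a troponin of skeletal muscle, by 7.08.

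Larger still were some rises that can only be given as bounds, since the gene was not well above background before re-stimulation. Il3, a growth factor of mast cells, basophils and their precursors, reached 61272, at least 17675-fold higher. Ccl1, the ligand of CCR8, reached 43110, at least 11430-fold higher, and Ccl3 reached 12786, at least 3688-fold higher. Il31, a cytokine linked to itch, reached 4416, at least 1274-fold higher. A gene with only a clone name, 1810009J06Rik, completed the 5 largest bounds.

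The largest falls were more modest and more mixed. Crtac1, an extracellular matrix protein, went from 468 to 14.2, a difference of −5.05 by the probe used, but its other probe gave −2.07. Cd248, the sialomucin endosialin, went from 236 to 9.93, a difference of −4.57, with −3.01 by its other probe. Plekhh3 followed with −4.35, Lrrc75b with −3.62 and Eya2, a transcriptional cofactor with phosphatase activity, with −3.60. Dhcr7, the last enzyme of cholesterol synthesis, was the sixth, from 2768 to 255 (−3.44). Thra, a thyroid hormone receptor, fell by 3.36 on the log2 scale and Camkk1, a calcium-dependent kinase that acts on AMPK, by 3.27. The selenium-binding proteins Selenbp1 and Selenbp2, whose genes are near copies and could share signal, had differences of −3.16 and −3.23. Between −3.41 and −3.17 lay Mcemp1, Pxylp1, Tmco3, Rab3a and Nyap1. Abhd15, Extl1, Lrrc25, She and Thsd1, which were not well above background after re-stimulation, had the largest bounds, from at least 10.6-fold to at least 8.88-fold lower. The other probe of Abhd15 gave a log2 difference of −1.56.

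**Figure D2:**
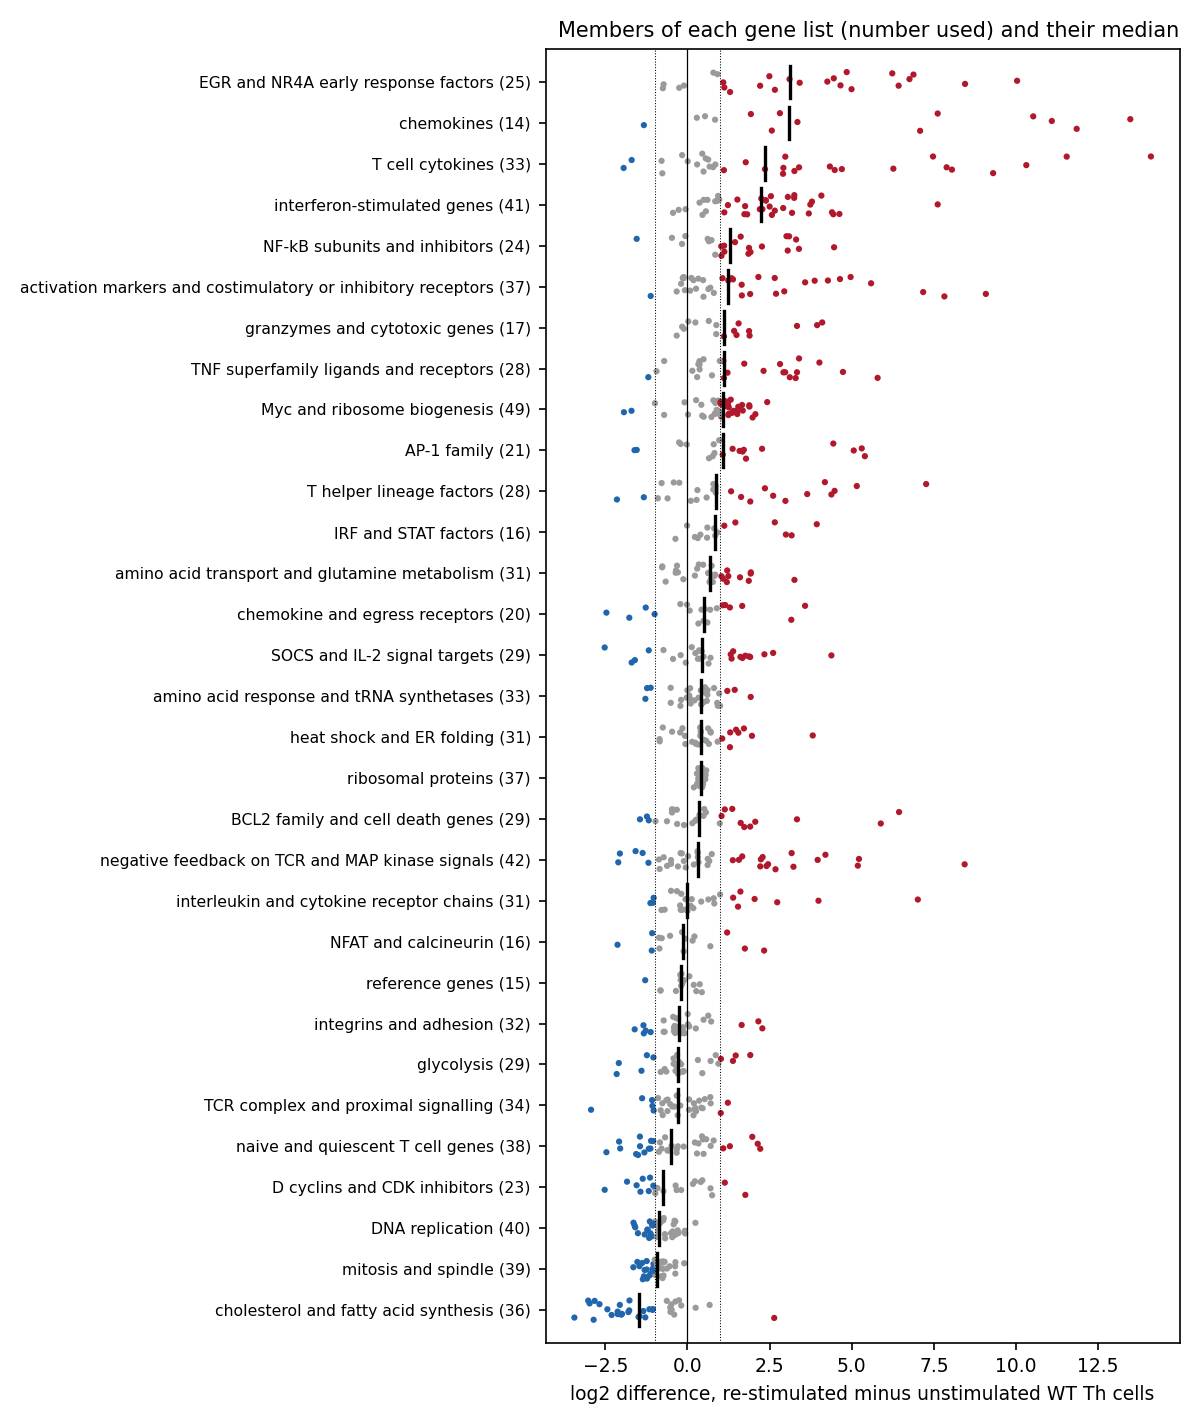
Log2 difference between re-stimulated and unstimulated WT Th cells (x axis) for the members of each gene list (rows, with the number of genes used). Points are genes, red at least 2-fold higher, blue at least 2-fold lower and grey between, black bars are medians, the vertical line is the median of all used genes and dotted lines mark 2-fold. Early response factors, chemokines, cytokines and interferon-stimulated genes have the highest medians, and cholesterol synthesis the lowest.

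Early response factors had a median difference of 3.11, the highest of the lists unless both arrays had to be well above background, and 19 of its 25 genes were higher and 0 lower. The EGR family rose as a whole. Egr1 went from 14.9 to 1609.7, and Egr3 and Egr4, not well above background before, were at least 21.9-fold and 86.1-fold higher. Nab2, a corepressor that EGR factors induce and that limits them, rose by 2.21. The NR4A nuclear receptors, whose transcripts are widely used as a readout of receptor signalling, also rose together: Nr4a1 from 358 to 42195, Nr4a2 from 7.79 to 2724, and Nr4a3 at least 31.9-fold. Arc rose by 4.85, the stress-induced factor Atf3 by 6.23, the kinases Plk2 and Plk3 by 4.66 and 3.42, and Ier3 by 3.11. Not all early genes were high at this time. Srf, the factor that drives many of them, had −0.75, Zfp36, which destabilizes cytokine mRNA, −0.11, and Klf6 −0.25.

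Within the AP-1 family, leucine zipper factors that pair as Fos and Jun proteins or with Batf, 11 of 21 genes were higher and 2 lower. Fos rose from 12.2 to 266 (4.44), and Fosb and Fosl1, not well above background before, were at least 42.2-fold and 39.5-fold higher. Fosl2 rose by 1.72, Jun by 1.68 and Junb by 2.27, while Jund had −0.21. The Batf members were unequal. Batf2 was at least 33.4-fold higher, Batf3 went from 139 to 479 (1.78), and Batf went from 1589.5 to 2708, 0.77, within 2-fold. The small Maf proteins Mafg and Mafk, and Maff, which was counted with the early response factors, all without an activation domain and able to pair with Bach and CNC factors, rose by 1.07, 1.37 and 4.26. Bach1 and Bach2, repressors that bind with them, had 0.82 and 0.66, and the Jun dimerization protein Jdp2 fell by 1.61 on the log2 scale. Nfe2 was at least 2.92-fold lower.

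NFAT and calcineurin genes showed no common direction at the mRNA level. Of 16, 3 (18.8%) were higher and 3 (18.8%) lower, beside 13.2% and 13.5% of all used genes. The counts were 2 and 6 with median scaling and 3 and 1 with scaling to Cd3e. The median of −0.14 turned to 0.16 with scaling to Cd3e. NFAT proteins are activated by dephosphorylation, which arrays do not see. Nfatc2 fell, with −1.08, while Nfatc3 had −0.78 and Nfatc1 −0.53, and a further probe of Nfatc1 gave 1.69. Higher were Orai1, the pore of the calcium channel opened by store depletion, with 255 and 1285 (2.33), the osmotic stress factor Nfat5 (1.75) and Rcan1, an inhibitor of calcineurin (1.21). Rcan3 fell by 2.13 and the calcineurin subunit Ppp3cb by 1.09 on the log2 scale.

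NF-kB genes moved largely one way. Of 24 used, 16 were higher and 1 lower, with a median of 1.29. Among subunits, Nfkb2 went from 509 to 5356, Relb from 525 to 4484 and Rela from 1184 to 4476, differences of 3.39, 3.09 and 1.92. Among inhibitors, Nfkbia went from 1885 to 18664 (3.31), Nfkbib rose by 2.27, Nfkbid by 3.05 and Nfkbie by 3.01. Tnfaip3, which encodes the ubiquitin editor A20, had the largest difference of the list, 4.46. Upstream, Malt1 and Bcl10, which carry the signal from the antigen receptor to NF-kB, rose by 1.03 and 1.03.

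Interferon regulatory factors and STATs held 6 higher and 0 lower of 16. Irf4, which partners with Batf in T cells, went from 57.4 to 878 (3.94), Irf8 from 768 to 6126 (3.00) and Stat5a, which carries the IL-2 signal, from 312 to 2806 (3.17). Its close relative Stat5b had 0.39. Irf7 rose by 2.66 and Irf1 by 1.46.

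The transcription factors that set Th lineages did not follow a single lineage. Of 28 used, 12 were higher and 2 lower. Tbx21 (T-bet, Th1) went from 469.8 to 3712 (2.98) and Eomes from 64.8 to 332 (2.36). Gata3 (Th2) had 0.86, within 2-fold. Ahr, a ligand-activated factor, rose by 3.65 and Bcl6 (follicular helper cells) went from 49.6 to 1034 (4.38). Zeb2, a repressor found in effector cells, was at least 154-fold higher, Zbtb32 rose by 4.48 and Pou2af1, a coactivator best known from B cells, by 5.15. Foxp3, the regulatory T cell factor, had signals of 11.6 and 6.23. Falls were seen for Zbtb7b (ThPOK), which fixes the CD4 lineage, by 2.15 and for Tox by 1.33 on the log2 scale.

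Among T cell cytokines and growth factors, 19 of 33 were higher and 2 lower, with a median of 2.36 that fell to 1.31 when both arrays had to be well above background, which leaves out the bounds. The Th2 cytokine Il4 went from 172 to 3479 (4.34) and its neighbour Il13 from 5.32 to 119 (4.48), while Il5 reached 5.37, a bound of 1.55-fold that did not pass 2-fold. Il17f, a Th17 cytokine, went from 5.07 to 390.3 (6.27), and Il17a was not well above background on either array. Il10 was at least 9.55-fold higher, Il6 at least 7.88-fold and Il21 at least 2.16-fold. The labels name no cytokine other than IL-2 in this culture, and members of the Th1, Th2 and Th17 groups rose in it side by side. Tnf went from 505 to 5318 (3.40), whereas its neighbours in the genome Lta and Ltb had 0.49 and 0.29. Csf1 rose by 4.70, Areg, an EGF receptor ligand, was at least 178-fold higher, and Hbegf rose by 2.92. The falls were Flt3l, from 3284 to 854 (−1.94), and Osm, a target of STAT5, from 293 to 90.3 (−1.70).

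Chemokines had a median of 3.08, with 10 higher and 1 lower of 14, 9 of them bounds. Besides Ccl1, Ccl3, Ccl4, Xcl1 and Cxcl10 above, Ccl5 went from 812 to 8270.4 (3.35), Ccl9 was at least 136-fold higher, Ccl20 at least 7.03-fold and Ccl17, a ligand of CCR4 on Th2 cells, at least 5.93-fold. Ccl22, the other CCR4 ligand, was not well above background on either array. Cxcl13, which guides B cells, was at least 2.51-fold lower.

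**Figure D3:**
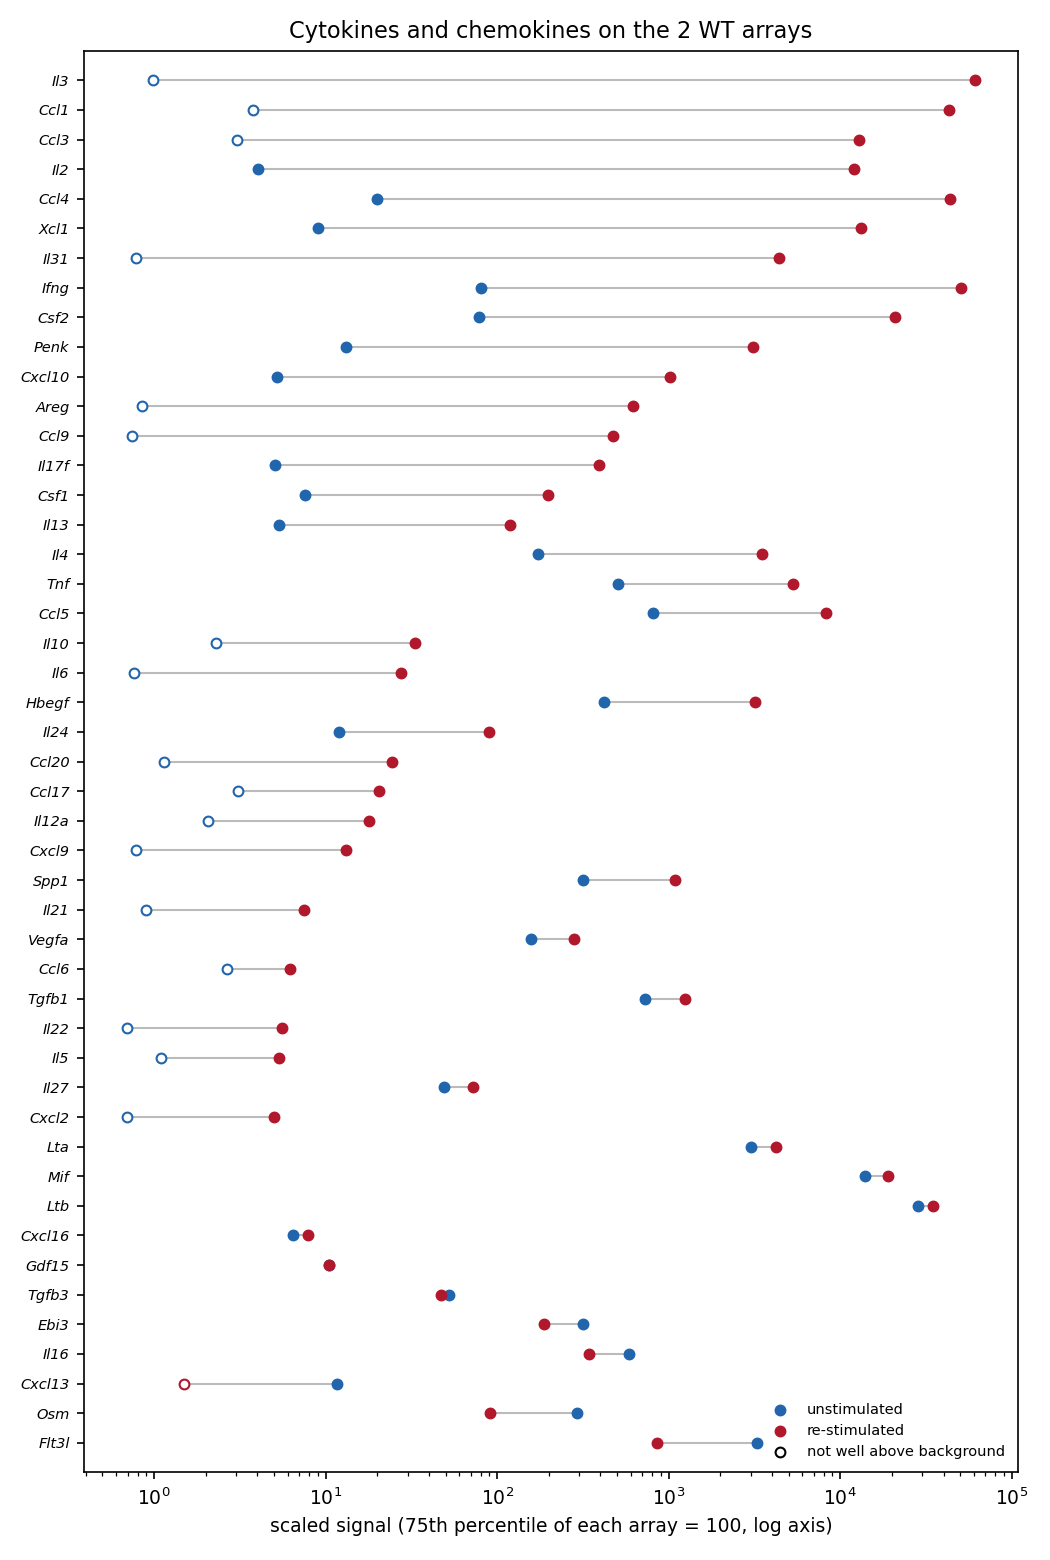
Scaled signal (x axis, log scale, 75th percentile of each array = 100) of each used cytokine and chemokine in unstimulated (blue) and re-stimulated (red) WT Th cells, ordered by log2 difference. Open circles were not well above background, so their distance to the filled circle is not a measured fold. Il3, Ccl1 and Ccl3 at the top were not well above background before re-stimulation, and Osm and Flt3l at the bottom are lower after it.

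The sequences just upstream of 4 of the genes with large rises are shown to let the letters of known response elements be seen in place. They come from RefSeq on the GRCm38.p6 assembly, 250 bases ending at the base before the transcription start, written 5′ to 3′ on the strand of the gene, with every match to 1 of 7 searched motifs in capitals. The motifs, read on both strands, were AP-1 (TGANTCA), CRE (TGACGTCA), the TATA box (TATAAA), the E-box (CACGTG), the NFAT core (TGGAAA), the CArG box that SRF binds and the kB site of NF-kB. Only these spellings were searched. GGAAA after a letter other than T, as also seen in Il2 and Il4, is neither marked here nor counted in the shares below. In Il2, Il4 and Ccl1 the marked TGGAAA lies on the opposite strand and so reads TTTCCA. The genes were chosen for display after their values were seen. Il2 (chr3:37125955-37126204, minus strand) holds an NFAT core 47 bases and a TATA box 31 bases upstream of the start, counted to the first base of the match. Il4 (chr11:53618666-53618915, minus strand, 1 of its 2 annotated starts) holds NFAT cores at 184 and 77. Ccl1 (chr11:82179813-82180062, minus strand) holds a kB match, on both strands with a shift of 1 base, from 196 and an NFAT core at 116. Egr2 (chr10:67537619-67537868, plus strand, 1 of 5 annotated starts, 4 of which hold a CArG box in this span) holds a CArG box at 72.
Il2: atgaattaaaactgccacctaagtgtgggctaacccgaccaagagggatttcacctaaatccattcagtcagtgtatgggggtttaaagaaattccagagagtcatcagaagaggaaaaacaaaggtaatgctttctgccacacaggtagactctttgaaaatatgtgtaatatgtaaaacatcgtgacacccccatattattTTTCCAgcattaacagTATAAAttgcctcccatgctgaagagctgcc
Il4: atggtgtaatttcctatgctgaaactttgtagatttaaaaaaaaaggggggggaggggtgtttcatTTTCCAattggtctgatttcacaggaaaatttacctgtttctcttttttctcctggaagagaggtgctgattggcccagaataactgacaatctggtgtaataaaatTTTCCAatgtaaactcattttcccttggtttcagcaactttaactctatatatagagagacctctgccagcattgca
Ccl1: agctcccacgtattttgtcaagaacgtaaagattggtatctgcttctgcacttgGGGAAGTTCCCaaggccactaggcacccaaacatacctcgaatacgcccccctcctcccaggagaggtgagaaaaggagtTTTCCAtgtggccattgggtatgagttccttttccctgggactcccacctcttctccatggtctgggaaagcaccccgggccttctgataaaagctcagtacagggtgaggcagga
Egr2: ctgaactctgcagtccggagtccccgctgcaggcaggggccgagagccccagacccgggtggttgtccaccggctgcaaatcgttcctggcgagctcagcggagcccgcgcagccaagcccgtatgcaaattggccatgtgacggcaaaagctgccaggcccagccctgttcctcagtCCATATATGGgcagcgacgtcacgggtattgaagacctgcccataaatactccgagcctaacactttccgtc

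Over all promoters of that length, several of these motifs were more frequent among the genes with large rises, as a description with no test. The AP-1 motif was found in 9.6% of 573 windows of genes at least 4-fold higher, 3.56% of 253 windows of genes at least 4-fold lower, 4.56% of 12644 windows of all used genes and 6.75% of all 32851 in the table. For the NFAT core the shares were 22%, 11.1%, 15.3% and 18.6%, for the kB site 12.6%, 9.88%, 8.91% and 7.25%, and for the TATA box 12.2%, 4.35%, 7.25% and 12.4%. For the AP-1 motif, the NFAT core and the TATA box the genes with falls lay below, and those with rises above, the share over all used genes. The CArG box was found in 2.79% of the windows with large rises, 2.37% of those with large falls and 1.24% of all used genes, so both directions lay above all genes. The E-box lay below all genes in both directions, with 6.11%, 6.32% and 8.16%. The CRE was nearly level between large rises and all genes, with 2.62% and 2.52%, and was in 0% of the 253 windows with large falls. Windows of genes with large rises were also poorer in CpG, with a median of 9 CpG pairs against 15, and 56.8% against 59.2% G plus C, and what part base composition has in these shares was not tested. Among the T cell cytokines, 48.5% of 33 windows held the NFAT core and 27.3% the TATA box. Windows of 1 gene can overlap.

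Receptors for chemokines and for sphingosine-1-phosphate, which decide where a T cell goes, were split. Of 20, 6 (30%) were higher and 4 (20%) lower, beside 13.2% and 13.5% of all used genes. The counts were 3 and 4 with median scaling and 7 and 2 with scaling to Cd3e. S1pr1, needed to leave lymphoid organs, fell from 884 to 159.8 (−2.47), S1pr4 from 499 to 249.7, just past 2-fold, and the monocyte and effector receptor Ccr2 from 239 to 70 (−1.77). Selplg, the ligand of P-selectin, had −1.27. Gpr183, which guides cells to the follicle border, rose by 3.16, Gpr174 by 3.58, Cxcr3, a Th1 receptor, by 1.67 and Ccr7 by 1.29. Cxcr6 had 0.068.

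TNF superfamily genes, which pass costimulatory and death signals between cells, held 15 higher and 1 lower of 28. Tnfsf11, which encodes RANKL, went from 14.9 to 821 (5.79), Tnfsf14 (LIGHT) from 439 to 11688 (4.73), Cd40lg, through which T cells help B cells, from 9.84 to 159 (4.02) and Fasl, the death ligand, from 162 to 1638 (3.33). Tnfsf9 and Tnfsf4 rose by 3.29 and 2.92, and Cd70 was at least 7.86-fold higher. Among receptors, Tnfrsf9 (4-1BB) went from 611 to 5294 (3.11) and Tnfrsf4 (OX40) from 6679.7 to 33263 (2.32), while Tnfrsf18 (GITR) and Cd27 had 0.36 and 0.33. Relt fell by 1.19 on the log2 scale.

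Surface molecules of activated cells that rose included inhibitory receptors, but not all inhibitory receptors rose. Of 37 genes, 20 were higher and 1 lower. Pdcd1 (PD-1) went from 97.9 to 3061 (4.97) and the genes of both its ligands, Cd274 and Pdcd1lg2, rose by 3.58 and 4.64. Havcr2 (TIM-3) went from 34.7 to 1673 (5.59; 3.49 by its other probe), Lag3 from 19.6 to 151 (2.95) and Ctla4 from 26.4 to 67 (1.34). Cd83, not well above background before, reached 1880.4, at least 542-fold higher. The early marker Cd69 rose by 1.91, Cd44 by 1.65, Cd200 by 4.28 and Cd24a by 3.87. Inhibitory receptors within 2-fold included Btla, Cd5, Cd200r1, Vsir and Klrg1, with 0.48, 0.26, −0.19, −0.12 and 0.64. Costimulatory Cd28 and Icos had 0.18 and 0.80, and Cd226, which competes with TIGIT, fell by 1.12 on the log2 scale.

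Receptors for interleukins and other cytokines held 7 higher, 3 lower and 21 within 2-fold of 31, a share within 2-fold no larger than the 73.3% of all genes. Il1r2, a decoy receptor for IL-1, stood apart with 5.26 and 679 (7.01), and Il1rl1, the IL-33 receptor, went from 12.7 to 201 (3.99), with its 3 probes between 0.64 and 4.37. The IL-2 receptor chains Il2ra, Il2rb and Il2rg had 0.13 (−0.62 by another probe), −0.32 and 0.42, and those for IL-12, Il12rb1 and Il12rb2, rose by 1.61 and 1.39. Ifnar2, Il10rb and Il6ra fell by 1.03, 1.05 and 1.13 on the log2 scale.

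Targets of IL-2 and STAT5 held 11 (37.9%) higher and 4 (13.8%) lower of 29, beside 13.2% and 13.5% of all used genes. The share that was lower was thus near that of all genes. These counts do not separate targets that the signal raises from those that it lowers. The largest rise of the list was that of Bcl6, with 4.38. Socs2 fell from 4551 to 1500 (−1.60), Bcl2 from 4189 to 1851 (−1.18), and Osm fell as given above. Cish and Pim1, which STAT5 also drives, had 0.38 and 0.32, and Pim3 rose by 2.34.

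Restraints on the receptor and MAP kinase signals held 16 (38.1%) higher and 5 (11.9%) lower of 42, and families within the list differed. The shares over all used genes were 13.2% and 13.5%. Of the MAP kinase phosphatases, Dusp4 went from 22.5 to 413 (4.20) and Dusp2 from 2736 to 14999 (2.45), while Dusp7 fell from 1464 to 351 (−2.06) and Dusp6 and Dusp1 had −0.052 and 0.19. The regulators of G protein signalling Rgs1 and Rgs2 rose by 5.22 and 5.19, while Rgs3 had 0.74, within 2-fold. The Sprouty gene Spry1 rose by 3.96 and the phosphatase Ubash3b by 3.17. Its relative Ubash3a had −0.85. Brakes on proximal signalling that fell were Ptpn6 (SHP-1), from 3487 to 809 (−2.11), Dok2 (−1.58), Sla2 (−1.37) and Rasal3 (−1.19).

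Genes of the receptor complex and its proximal signalling mostly stayed within 2-fold, 27 of 34. Of the rest, 2 (5.88%) were higher and 5 (14.7%) lower, beside 13.2% and 13.5% of all used genes. The counts were 0 and 9 with median scaling and 3 and 2 with scaling to Cd3e. The median of −0.30 lay below that of all genes but was −0.0042 with scaling to Cd3e. The CD3 chains Cd3d, Cd3e and Cd3g had −0.22, −0.30 and −0.33. Lcp2 (SLP-76), an adaptor, rose by 1.23, and the largest fall was that of Sit1, an inhibitory adaptor, from 1193 to 156 (−2.94). Csk, the kinase that holds Lck in check, fell by 1.38 and Rasgrp1, which activates Ras, by 1.07 on the log2 scale.

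Genes of naive and resting T cells fell in part, 12 (31.6%) of 38 lower and 5 (13.2%) higher, beside 13.5% and 13.2% of all used genes. The counts were 15 and 3 with median scaling and 8 and 7 with scaling to Cd3e. Txnip, a glucose-sensitive inhibitor of glucose uptake, went from 719.8 to 170 (−2.08) by the probe used, and another probe gave 1.00. Pik3ip1, which restrains PI3K, fell from 439 to 149 (−1.56), and Lef1 fell by 1.11 on the log2 scale. Tcf7 had −0.61 and Klf2 0.22 (−1.19 by another probe). Against the list, Slfn2 rose by 2.14 and the antiproliferative Btg1 from 2256 to 8855 (1.97).

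Cytotoxic genes held 9 higher and 0 lower of 17. Prf1 (perforin) went from 263 to 966 (1.87), Gzma from 757 to 2130.4 (1.49), and Gzmb had 0.24. The granzyme inhibitor Serpinb9 and its neighbour Serpinb6b rose by 3.95 and 4.10.

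Survival genes of the BCL2 family differed in direction. Bcl2 fell as above while Bcl2l1, which encodes Bcl-xL, rose from 191 to 718 (1.91) and Bcl2a1b from 187 to 16229 (6.44). The probe of Bcl2a1b may also read its near-identical copies. Of the genes that promote death, Bcl2l11 (Bim) rose by 2.06 (3.60 by its other probe) and Bbc3 (Puma) and Bik fell by 1.23 and 1.45 on the log2 scale. Gadd45b, a stress kinase activator, went from 123 to 7264 (5.88). In all, 10 (34.5%) of 29 genes of this list were higher and 3 (10.3%) lower, beside 13.2% and 13.5% of all used genes.

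Sterol synthesis had the lowest median of the lists. Of 36 genes of cholesterol and fatty acid synthesis, 24 (66.7%) were lower and 1 higher, with a median of −1.47, and under the scaling least favourable to falls, that to Cd3e, 20 were still lower. Along the pathway from acetyl-CoA, Hmgcs1 went from 8229 to 1160.2 (−2.83), Mvk from 305 to 76.5 (−1.99) and Mvd from 2302 to 292 (−2.98). These enzymes act around mevalonate, on the way to isoprenoid units. Squalene synthase, Fdft1, had −2.86 by the probe used and −0.097 by another, Sqle −2.06 and Lss −2.44. The later steps fell too, Cyp51 by 2.08, Msmo1 by 2.68, Nsdhl by 2.12, Sc5d by 1.46 and Dhcr7 by 3.44 on the log2 scale. Srebf2, which drives the pathway, had −0.63 and Srebf1 −1.06. In the fatty acid branch Scd1, Fasn and Acacb had −2.02, −1.16 and −3.02. The gene that rose was Abca1, which exports cholesterol, at least 6.24-fold, while the LXR targets Abcg1 and Mylip had −0.53 and −0.49. Insig1, normally a target of SREBP, had 0.67 by the probe used and −0.47 by another.

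**Figure D4:**
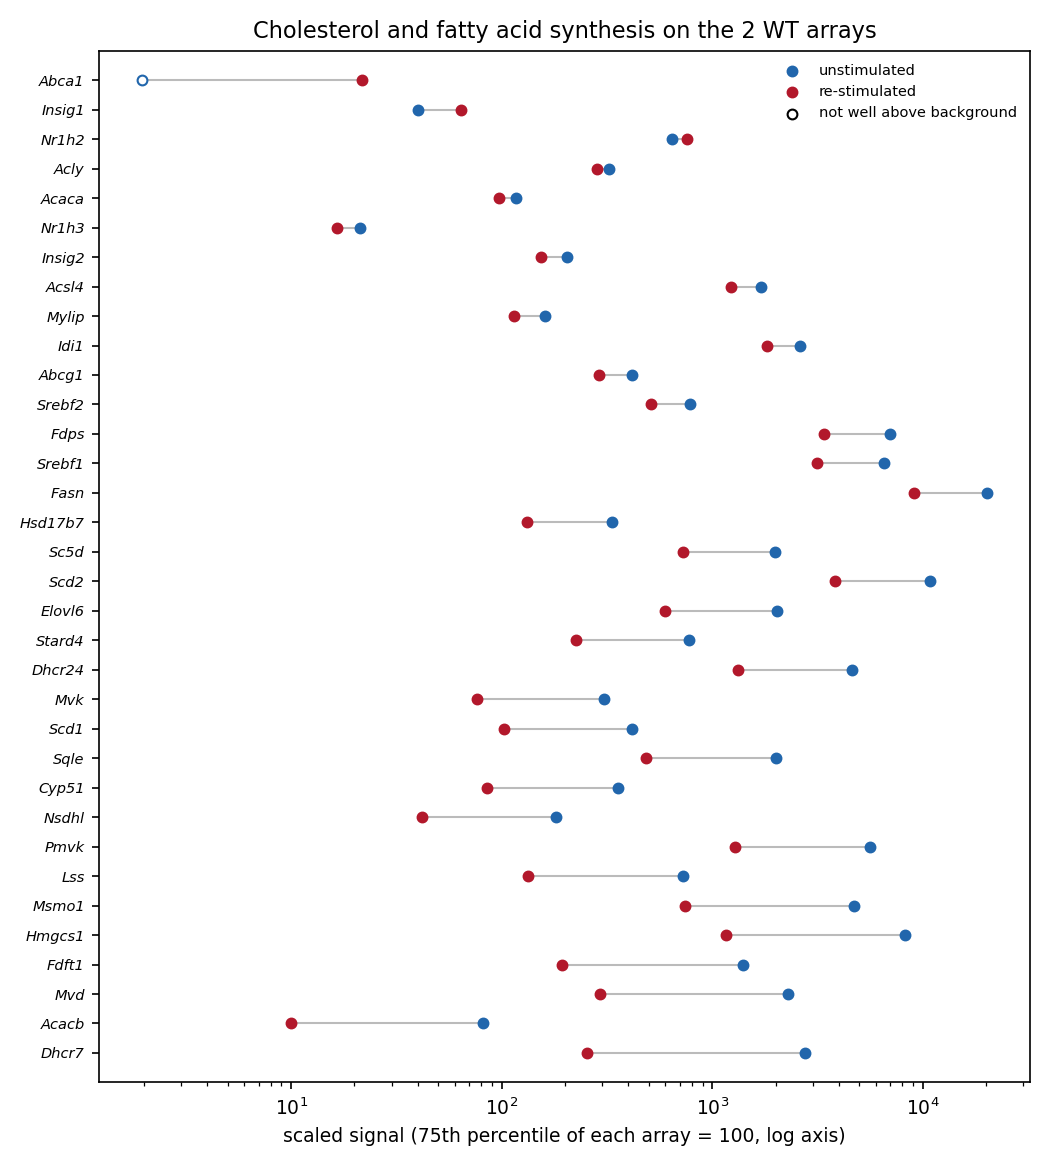
Scaled signal (x axis, log scale, 75th percentile of each array = 100) of used genes of cholesterol and fatty acid synthesis that are reported here, in unstimulated (blue) and re-stimulated (red) WT Th cells, ordered by log2 difference, with open circles for a side not well above background. Most red points lie to the left of the blue ones, with Abca1 at the top as the exception past 2-fold.

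Glycolytic genes did not rise together at this time. Of 29 genes, 4 (13.8%) were higher and 5 (17.2%) lower, near the 13.2% and 13.5% of all used genes. With scaling to Cd3e 7 were higher and 3 lower, and the median of −0.29 became 0.01. Hk2, an inducible hexokinase, rose by 1.02 and Pfkfb3, which speeds up phosphofructokinase, by 1.38, while Pfkm, Pfkfb4 and Pdk1 fell by 2.16, 2.09 and 1.40 on the log2 scale. Slc2a1, the main glucose transporter of activated T cells, had 0.45.

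Amino acid transport and the use of glutamine rose in part, 10 higher and 0 lower of 31. The count depends on the scaling, with 5 higher and 2 lower for the median, 15 and 0 for Cd3e and 6 and 0 after normexp. Slc7a3, a carrier of cationic amino acids, went from 36.6 to 349.6 (3.26), and Slc1a5 and Slc3a2 rose by 1.21 and 1.03. Asns, which makes asparagine, had 1.92, and Odc1 and Srm, the first enzymes of polyamine synthesis, 1.24 and 1.93. Of 33 genes of the amino acid response and of tRNA charging 3 (9.09%) were higher and 3 (9.09%) lower, or 8 and 0 with scaling to Cd3e. Without that scaling both shares lay below the 13.2% and 13.5% of all used genes.

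Ribosome building rose broadly but by small folds. Of 49 genes of the Myc network and of ribosome biogenesis, 28 were higher and 2 lower, with a median of 1.09 and a highest value of 2.43. Because so many of them lie near 2-fold, scaling to the median left 15 higher and scaling to Cd3e made it 39. Myc went from 1327 to 3308 (1.32). Noc3l, Pno1, Rrp9 and Grwd1, all needed to assemble the subunits, rose by 2.43, 2.07, 1.89 and 1.88, and Polr1b, a subunit of RNA polymerase I, by 1.66. Mycn and Mxd3, other members of the Myc network, fell by 1.93 and 1.70 on the log2 scale, although probes of Mycn ranged from −1.93 to −0.20. The 37 ribosomal protein genes themselves lay in a narrow band, between 0.19 and 0.57, with a median of 0.40 that was 0.07 after quantile normalization and 0.11 with scaling to the median.

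Heat shock and endoplasmic reticulum folding genes held 8 higher and 0 lower of 31, or 6 and 3 with median scaling, 10 and 0 with scaling to Cd3e and 5 and 0 after normexp. Hspa5 (BiP), the chaperone of the endoplasmic reticulum, went from 3069 to 10109 (1.72), Hsph1 rose by 1.48, and the near copies Hspa1a and Hspa1b by 1.96 and 3.81. The higher genes also included Atf6 and Ern1, stress sensors and not chaperones, with 1.55 and 1.30.

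Cell cycle genes lay on the low side. Of 40 DNA replication genes 14 were lower and 0 higher, with a median of −0.88, and of 39 genes of mitosis and the spindle 17 were lower and 0 higher, with a median of −0.94. All 39 mitotic genes had a value below 0, the highest being −0.099, which scaling to Cd3e turned above 0. Since most members sit near 2-fold, the counts depend on the scaling, from 5 and 7 lower with Cd3e to 25 and 32 lower with the median, in that order of lists. Pold1, a replicative polymerase, went from 6330.1 to 2074 (−1.61), the licensing factor Cdc6 from 265 to 84.9 (−1.64), Top2a from 1283 to 466 (−1.46) and Ccnb2, a mitotic cyclin, from 9637 to 3902 (−1.30). Mki67, the common proliferation marker, had −0.93 and Pcna −0.37. The D cyclins, which start the cycle, parted. Ccnd2 rose from 6639 to 22505 (1.76) and Ccnd3 fell from 5719 to 997 (−2.52). Cdkn1a (p21) rose by 1.14 and the E2F genes E2f1, E2f2, E2f7 and E2f8 fell by 1.14, 1.84, 1.55 and 1.36 on the log2 scale. E2f3 and E2f4 did not fall, with 0.23 and 0.40.

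Interferon-stimulated genes rose widely. Of 41 genes, 28 (68.3%) were higher and 0 lower, with a median of 2.25, and between 26 and 33 were higher over the alternatives. Members induced by either kind of interferon, such as Ifit3, from 44.1 to 1088 (4.62), Isg15, from 326 to 4217 (3.69), and Oasl2, from 60.8 to 1319 (4.44), rose beside members best known as targets of IFN-γ. Of the latter, Gbp2, a GTPase of host defence, went from 648 to 8965 (3.79), Gbp5 from 173 to 2318 (3.74) and Iigp1 from 454 to 3776 (3.06). The immunoproteasome genes Psmb8 and Psmb9 had −0.27 and −0.058, and Socs1, an inhibitor of this pathway, −0.44. Ifng rose in the same cells as given above, and whether it had a part in these rises was not tested.

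Adhesion genes and reference genes served as lists with no set direction. Of 32 adhesion genes 3 (9.38%) were higher and 5 (15.6%) lower, beside 13.2% and 13.5% of all used genes. Itgav rose by 2.28. Tln1 and Vcl fell by 1.34 and 1.61 on the log2 scale by the probes used, with 0.22 for another probe of Vcl. Of 15 reference genes 1 passed 2-fold, Tubb5 with −1.29, and Gapdh, Hprt and Actb had −0.19, −0.22 and 0.19.

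Some of the large rises lay side by side in the genome. Among 8163 pairs of neighbouring protein-coding genes that were both used, 40 pairs had both genes at least 4-fold higher and 13 both at least 4-fold lower. Over all 12388 used genes, 550 were at least 4-fold higher and 241 at least 4-fold lower. How many pairs these shares alone would give was not tested. The pairs named here were picked after their values were seen. The pairs with rises included Csf2 and Il3, Il4 and Il13, Ccl3 and Ccl4, Cd274 and Pdcd1lg2, and Tnfsf9, Cd70 and Tnfsf14 in a row. Serpinb9 and Serpinb6b, the metallothioneins Mt1 and Mt2 (4.75 and 6.75), and Tnfaip3 and Perp (4.46 and 3.17) were others. Bounds are counted at their size. Several such pairs are duplicated genes whose probes may share signal.

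The response can be set beside that of the cells labelled Bach2-deficient, which used other arrays. For the 10810 genes that all 4 arrays measured, the log2 differences had a Pearson r of 0.899 and a Spearman rho of 0.89, as a description across genes, which are not independent replicates. Of the genes higher in WT cells 1077 of 1498 (71.9%) were at least 2-fold higher there too, beside 12.4% of all genes used in that comparison, and of the lower ones 1129 of 1609 (70.2%) were lower, beside 13%. Past 2-fold in opposite directions were 8 genes, picked out for that difference. Klrb1f had 1.98 in the WT response and −1.28 in the other one, and Trim9 −1.33 and 1.96. Signals were low, for Klrb1f 8.01 and 31.5 in WT cells and 13.8 and 5.68 in cells labelled Bach2-deficient. Those of Trim9 were 41.3 and 16.4 in WT cells and 7.54 and 29.3 in the others. The remaining genes of the 8 had a bound in either or both responses.

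Interferon-stimulated genes were the list whose medians lay farthest apart, 2.25 in the WT response and 0.54 in that of the cells labelled Bach2-deficient, where 14 of 41 were higher. The gap lay in the unstimulated arrays. There 22 of 41 of these genes were at least 2-fold higher in the cells labelled Bach2-deficient than in WT cells, beside 5.26% of all genes used, with a median of 1.03. After re-stimulation it was 4 of 41, beside 5.17%, with a median of −0.096. Iigp1 had scaled signals of 2156 and 2359.6 there, against 454 and 3776 in WT cells, and Rtp4 3223 and 3281 against 735 and 4159.8. Irf1, higher after re-stimulation in WT cells, had −0.48 in cells labelled Bach2-deficient. Ifng, in the same order, had 271 and 47525 there and 80.2 and 50745 in WT cells. Markers of other cells moved with the genotype label as well. Of 8 mast cell and basophil markers, 5 were well above background on both arrays of the cells labelled Bach2-deficient, with summed scaled signals of 240 and 249 against 7.53 and 0 in WT cells. Mcpt8, a basophil protease, had 71.2 and 94.4 there and Cpa3, a mast cell protease, 78.2 and 55.4, while Ms4a2, Mcpt4 and Tpsb2 were not well above background on any of the 4 arrays. Summed myeloid markers were 289.6 and 272 there, and Hba-a1 was 347 and 286. Their part in this difference was not tested. With 1 array a condition this difference between the responses could not be tested, and the cultures may differ in more than the floxed gene.

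**Figure D5:**
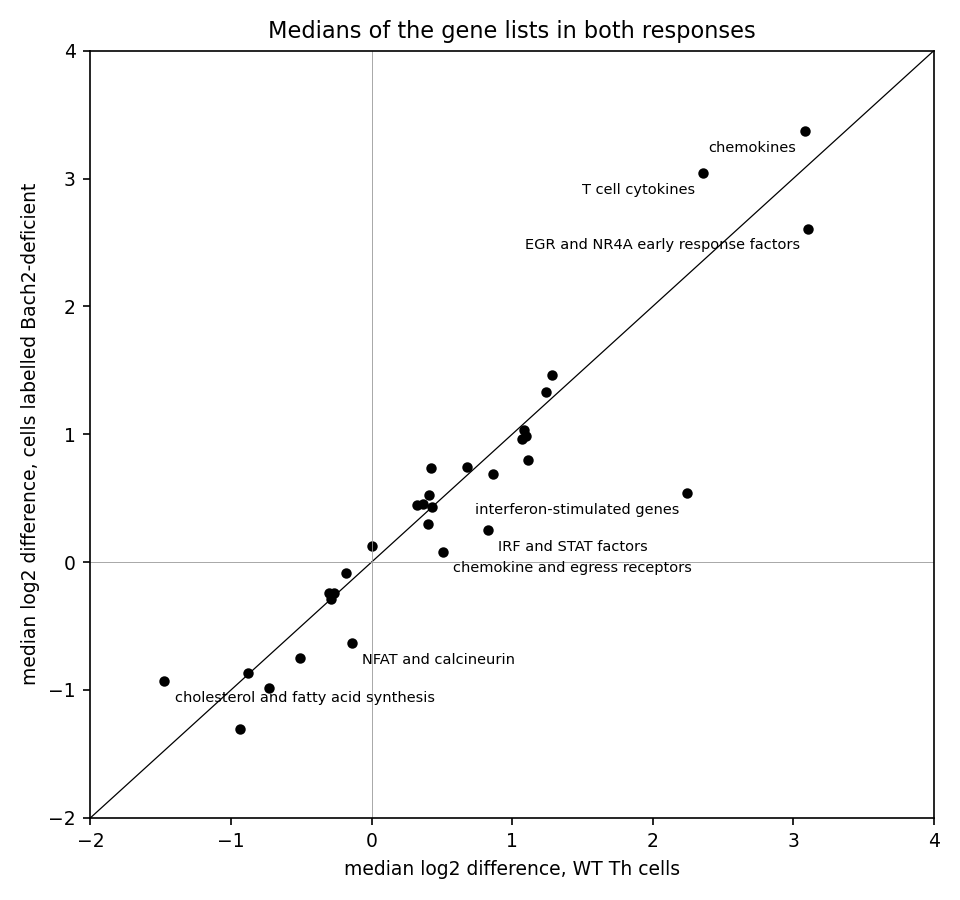
Median log2 difference on re-stimulation of each gene list in WT Th cells (x axis) and in cells labelled Bach2-deficient (y axis), with the line of equal medians. Most lists lie near the line, and interferon-stimulated genes lie below it, at 2.25 and 0.54.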

How the data were processed

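Total RNA (500 ng) of each culture was labelled with Cy3 and hybridized to a 1-colour Agilent array, 1 array a condition. The authors deposited Agilent Feature Extraction 10.7.3.1 output, whose spot intensity values are background-subtracted and corrected for spatial trends per the file headers (design build mm9), and a table of log2 values. The deposited log2 values differed from log2 intensity minus the 75th percentile of the array by no more than 0.01 for at least 41001 of 41173 probes on every array. Their columns have medians of −4.09 and −3.80 on the WT arrays.

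Flagged outlier spots were left out, log2 values of repeated spots were averaged, and each array's 75th percentile (all non-control probes) was subtracted. Of the probes 27479 (66.7%) matched a RefSeq gene (GRCm38.p6, names and promoters only), and the brightest probe of a gene, by its mean over the 4 arrays, stood for it. Raw values at the lowest signal well above background were 15.1 and 14.5. Named genes were the 15 largest measured differences and 5 largest bounds in each direction and members of the gene lists. Members and lists were chosen with earlier results of these data known. The few neighbouring pairs and genes that parted from the cells labelled Bach2-deficient were picked after their values were seen. No test was possible with 1 array a condition. Alternatives were other scalings (median, quantile, 75th percentile of detected probes, Cd3e), normexp background correction with an offset of 50 on median spot signals, the authors' log2 table, the mean over probes, other filters and a 3-fold rule. The steps were tested on simulated data. Python 3.11.15, numpy 2.4.6, pandas 2.3.3, matplotlib 3.10.9, R 4.3.3 and limma 3.58.1 were used. All 4 arrays were on 1 slide and scanned together, so slide and scan do not separate the conditions.
A few genes are not reported here by name.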

Additional observations from a re-analysis of the deposited data

How the results depend on the processing

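No paired analysis was possible because each condition had 1 array and the labels carry no replicate numbers, so nothing below measures variation between cultures, which is what limits the precision. Of the 401 named genes past 2-fold, 282 passed 2-fold the same way under every alternative that gave a value, and none of 7870 values of named genes turned past 2-fold in the opposite direction, while 185 dropped below 2-fold and 177 passed it newly. Median scaling gave 2664 lower genes and a share of higher genes of 29.1%, and scaling to Cd3e 2490 higher, 993 lower and 71.5%, which follows from the shift that such scalings add to all genes. Normexp with quantile normalization gave 848 higher genes, and its offset draws low signals together. With the filter and the floor under the bounds both removed, 2951 of 18749 genes were higher, a share of 59.5%, and the 3-fold rule left 797 higher and 557 lower.

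List medians are given here relative to the median of all genes. Of 279 values 47 moved by more than the spread between probes and none reversed. With normexp they were 2.41 for EGR and NR4A factors, 1.13 for NF-kB, 1.20 for cytokines, 2.12 for chemokines, 0.31 for chemokine receptors, 0.85 for the TNF superfamily, 1.00 for activation markers, 0.90 for cytotoxic genes, 0.17 for ribosomal proteins and −0.41 for D cyclins and E2F genes. Quantile normalization gave 2.15 for cytokines and 0.16 for ribosomal proteins. With both arrays well above background, which leaves out the bounds, they were 2.62 for EGR and NR4A factors, 1.35 for cytokines, 7.66 for chemokines, 1.46 for cytotoxic genes and −0.51 for D cyclins. With neither filter nor floor the median of all genes was 0.33, and which of the 2 steps moved it was not tested. The values were then 2.77 for EGR and NR4A factors, 0.69 for AP-1, −0.43 for NFAT, 0.79 for NF-kB, 0.50 for IRF and STAT, 0.53 for lineage factors, 2.58 for cytokines, 2.76 for chemokines, 0.14 for chemokine receptors, 0.83 for the TNF superfamily, 0.73 for activation markers and 0.10 for SOCS and IL-2 targets. They were 0.046 for feedback genes, −0.63 for the TCR complex, −0.87 for naive genes, 0.76 for cytotoxic genes, 0.063 for the BCL2 family, −0.62 for glycolysis, 0.36 for amino acid transport, 0.088 for the amino acid response, 0.75 for ribosome biogenesis and 0.070 for ribosomal proteins. They were −1.79 for cholesterol, 0.074 for heat shock and folding genes, −1.06 for D cyclins, −1.21 for replication, −1.27 for mitosis, 1.92 for interferon-stimulated genes, −0.59 for adhesion and −0.52 for reference genes. The cause of the other moves was not tested.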

Other observations

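Probes that match no RefSeq gene in the table used here also responded. Of 13694 such probes, 5542 were well above background on at least 1 WT array, 917 of them (16.5%) at least 2-fold higher and 439 (7.92%) at least 2-fold lower after re-stimulation. Which transcripts they read was not analysed here.

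The neighbouring pairs with large differences reached beyond immune genes. Bdh2, an enzyme of ketone and siderophore metabolism, was at least 815-fold higher, and its neighbour Slc9b2, a sodium and proton exchanger, had a log2 difference of 4.62. The cardiac myosin heavy chains Myh6 and Myh7 were at least 7.12-fold and 154-fold higher, and they are near copies that could share signal. Olr1, an oxidized LDL receptor, was at least 57.9-fold higher and Tmem52b had 2.23. Among falls, Padi4 and Padi3, which convert arginine in proteins to citrulline, had −2.70 and −2.80, Cd72 and Sit1 had −2.13 and −2.94, and Txnip and Polr3gl had −2.08 and −2.06. These pairs were picked after their values were seen.

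The share of changed genes varied with the signal level. Among genes measured on both arrays, split by mean signal into 4 equal groups from low to high, 14.4%, 11%, 9.40% and 8.68% were at least 2-fold higher and 14.9%, 17.1%, 14.0% and 8.21% at least 2-fold lower.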
